A study of Mus musculus with 2 samples.

Results

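Mir22 is the single gene that encodes the microRNA (miRNA) miR-22 in the mouse. It was taken as the 1 row, of 2202 miRNA genes in the count tables, whose Ensembl identifier (ENSMUSG00000065529.1) carries that name in GENCODE M21. It was chosen by its measured read counts, which were known to be high and to differ between the libraries, so its own values are a description and carry no test. The tissue was adrenal gland, from females aged 4 days. Their strain was B6CASTF1/J, a hybrid that crosses C57BL/6J with the wild-derived CAST/EiJ. No genotype change or treatment is named. There were 2 libraries of this 1 group, biological replicates 1 and 2, described as different females although both carry 1 donor identifier. No other group exists. The questions open to the data are thus what share of the miRNA reads Mir22 took and how far the libraries differed at this gene.

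MiRNAs are short RNAs cut from a hairpin precursor by Drosha and Dicer. The arm kept in the Argonaute protein pairs with messenger RNAs mainly through its seed, bases 2 to 8, and lowers their stability and translation. MiR-22 is conserved among vertebrates and expressed in many tissues. It is known from growth of the heart muscle, from blood stem cells and erythroid maturation, and as a regulator of the DNA demethylase gene Tet2. In the adrenal medulla it has been studied as a regulator of Chga, which encodes the secretory granule protein chromogranin A.

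The sequences below are shown because they are the annotated products of Mir22, and because no other annotated mouse miRNA shares their seeds. They are from RefSeq (GRCm38.p6), written 5′ to 3′. Capitals mark the 2 mature arms in the hairpin and the seed in each mature miRNA.
Mir22 hairpin: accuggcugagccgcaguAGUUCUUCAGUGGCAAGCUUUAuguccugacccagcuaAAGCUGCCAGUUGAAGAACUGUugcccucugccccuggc
mmu-miR-22-5p: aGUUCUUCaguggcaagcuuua
mmu-miR-22-3p: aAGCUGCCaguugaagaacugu
Each arm is 22 bases long, at positions 19 to 40 and 57 to 78 of the 95-base hairpin. Bases 1 to 9 of the 5p arm (AGUUCUUCA) are the exact complement of bases 12 to 20 of the 3p arm (UGAAGAACU), the longest such run between the arms. The seed of each arm was held by 1 of the 1738 mature miRNAs in the RefSeq table, so Mir22 had no family member by seed.

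Mir22 lies on chromosome 11 (chr11:75463716-75463810, plus strand, mm10). The hairpin sits within exon 2 of both annotated transcripts of Mir22hg, its non-coding host gene. It also sits within exon 2 of a non-coding transcript of Tlcd2, a protein-coding gene that overlaps the locus. In 141767 annotated transcripts, either arm was found only in those of Mir22, Mir22hg and Tlcd2, and its reverse complement in none. The hairpin shares no run of 18 bases with another miRNA hairpin outside its locus. Among annotated transcripts there was thus no second copy to divide its reads with, unlike for many other miRNA genes here. Reads were counted per hairpin, so the arms cannot be told apart.

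Mir22 was an abundant miRNA in both libraries and stood far higher in replicate 1 than in replicate 2. It had 110427 reads in replicate 1 and 18927 in replicate 2. Reads assigned to miRNA genes numbered 4960537 and 4506482. Its share of these reads was 2.23% (Wilson interval at 95%, 2.21 to 2.24) and 0.420% (0.414 to 0.426). These intervals cover counting error only, since PCR copies of a molecule were not marked and cannot be removed. As counts per 1e6 miRNA reads (CPM) the levels were 22261 and 4200.0, with a mean of 13231 CPM ± 12771 (SD, n = 2). The SD is thus nearly as large as the mean, and the intervals of the libraries lie far apart. No read fell on the opposite strand of the gene in either library, which allows shares of up to 6.05e-05% and 6.66e-05% by the limit of 3 counts.

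Of the 377 genes with at least 10 reads in both libraries, called detected here, Mir22 ranked 11th in replicate 1, 43rd in replicate 2 and 21st by mean CPM. Each read is a whole short RNA, so CPM was not divided by length in this order. Per base of hairpin it ranked 23rd. Multiply mapped reads, 25.9% of all reads in replicate 1 and 27.8% in replicate 2, were left uncounted. Genes whose hairpins share runs can thus stand too low beside Mir22, which shares none, and its rank and share too high. Among hairpins that share no run it ranked 14th. Directly above it by mean CPM were Mir139, in an intron of Pde2a (17087 CPM ± 4092, SD, n = 2), Mir378a, in an intron of Ppargc1b (16092 CPM ± 4758), and Mir99b (14679 CPM ± 275). Directly below were Mir379 (13152 CPM ± 1506) and Mir487b (12021 CPM ± 5863), both of the imprinted Dlk1-Dio3 cluster, and Mirlet7d (11601 CPM ± 1916; SD, n = 2 for each). The values of these 6 genes all lay between the 2 values of Mir22, so its place among them is not set by these data. In all, the range between the libraries overlapped that of Mir22 at 35 other detected genes, lay wholly above it at 10 and wholly below it at 331.

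**Figure D1:**
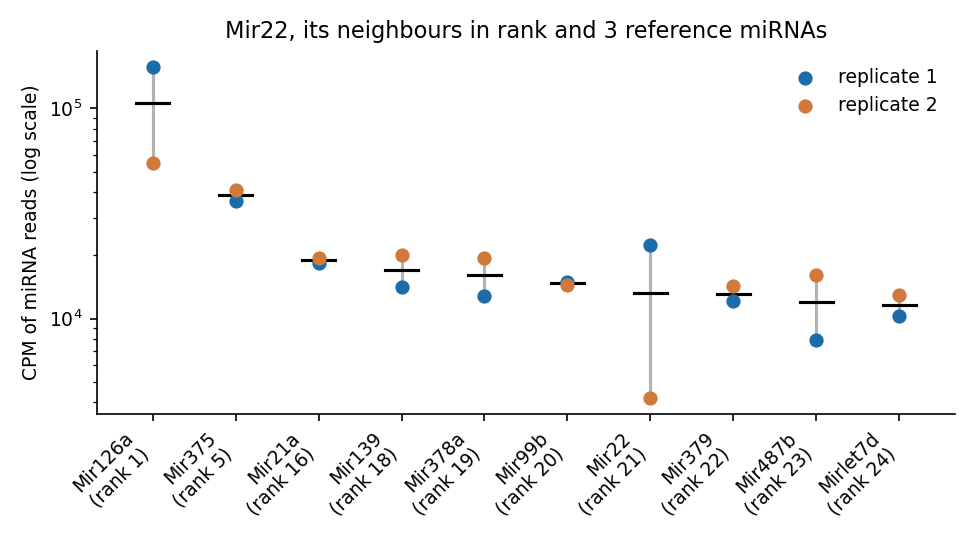
Levels in CPM (log axis) of Mir22, of the 3 genes on either side of it in rank and of 3 reference miRNAs, with a point for each library and a black bar for the mean of both. The points of Mir22 lie at 22261 and 4200.0 CPM, on either side of all points of its 6 neighbours in rank.

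Reference miRNAs of the tissue put this level in context. Mir375, known from neuroendocrine cells such as those of the medulla, was at 36380 CPM in the first library and 41025 CPM in the second. Mir21a, a widely expressed miRNA, had 18470 CPM and 19306 CPM. Mir22 was above Mir21a in replicate 1 and below it in replicate 2. Mir126a, an endothelial miRNA within Egfl7, had 156832 CPM and 54709 CPM. It was the most abundant gene by mean and was higher in the same library as Mir22. No miRNA was taken as specific to the adrenal cortex, so the tissue label was checked only against Mir375.

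Between the libraries Mir22 was 5.12-fold higher in replicate 1. This fold is of reads scaled by TMM, a scaling that sets the bulk of genes level. The log2 ratio of replicate 2 over replicate 1 was -2.35 (95% exact binomial interval -2.38 to -2.33, counting error only). The unscaled ratio of CPM values was 5.30. With 1 library on each side, and both under 1 donor identifier, there is no spread between animals to set this against. In bulk tissue, fewer cells of a type cannot be told apart from less RNA per cell. A ratio of at least 2-fold towards replicate 1 was held by 13.0% of the detected genes and towards replicate 2 by 5.84%. At least 4-fold towards replicate 1 was held by 4.51%. Over all detected genes the median log2 ratio was -0.04 and the median of its size was 0.42. The ratio of Mir22 ranked 17th in size among the 377.

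Mir22 combined a high level with a large ratio. Among the 25 most abundant genes its log2 ratio was the largest in size. The other 24 ran from -1.47 (Mir126a) to 1.09 (Mir487b), with a median size of 0.38. Among the 50 most abundant, 1 gene exceeded it, Mir206 of skeletal muscle, at 2.85 and thus higher in replicate 2. Among the 100 most abundant, it ranked 7th in size. The genes whose share was lower in replicate 2 than in replicate 1 lost 17.7 percentage points of the miRNA reads in sum. Mir22 made up 1.81 of these points, or 10.2%, next to Mir126a at 57.8%. Together this pair made up 68.0%.

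The genes most like Mir22 in this difference were sought among the 92 detected genes of at least 1000 mean CPM, Mir22 included, by the distance between log2 ratios over the 2 libraries. The nearest was Mir15a, of a cluster in Dleu2 known to restrain cell division. Its levels were 5013 CPM (replicate 1) and 887 CPM (replicate 2), and its log2 ratio of -2.45 lay 0.09 from that of Mir22. Mir214, a mesenchymal miRNA from the non-coding gene Dnm3os, had 3641 CPM and 542 CPM (log2 ratio -2.70, distance 0.34). Mir126a (-1.47, distance 0.89) and Mir15b in an intron of Smc4 (-1.47, distance 0.89) followed, with Mir15b at 1942 CPM and 678 CPM. Mir195a was the fifth, at 3448 CPM and 316 CPM (log2 ratio -3.40, distance 1.04). All 5 hairpins share no run with another.

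The likeness rule used no sequence. Of the 5 genes, 3 carry 1 seed, and nothing is read from this. The 5p arms of these 3 are printed to show that their seed (capitals) is not that of miR-22.
mmu-miR-15a-5p: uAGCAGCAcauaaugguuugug
mmu-miR-15b-5p: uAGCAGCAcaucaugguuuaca
mmu-miR-195a-5p: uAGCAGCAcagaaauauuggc
The whole set of genes with this seed was added after the values were seen. It holds 11 loci in RefSeq, all in the count tables, of which 7 were detected. Of these, 5 were at least 2-fold higher in replicate 1 and none in replicate 2, beside 13.0% and 5.84% of all detected genes, and the median log2 ratio was -1.22. Since 3 of the 5 entered by this ratio, nothing is read from the count. The other pair was Mir16-2 (log2 ratio -0.72) and Mir322, the most abundant of the set, at 29732 CPM (replicate 1) and 36935 CPM (replicate 2; log2 ratio 0.36). Several of these genes lie in shared clusters and are not independent of each other.

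The miRNA genes detected near Mir22 lay within 2-fold between the libraries, as most detected genes did. Of 5 others within 1 Mb of it, 2 were detected, Mir132 and Mir212. These form a pair known to respond to corticotropin and cyclic AMP in the adrenal cortex, 289969 and 290238 bases upstream on the same strand. Mir132 was nearly level, at 612 CPM (replicate 1) and 603 CPM (replicate 2; log2 ratio 0.03). Mir212 had 37.9 CPM and 31.3 CPM (-0.23). Both lay within 2-fold, where 306 of the 377 detected genes lay, so nothing is read from this. Mir6926 had 3 reads and 1 read, and the other two had none in either library.

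Other miRNAs from exons of non-coding genes mostly lay within 2-fold between the libraries, at 42 of 47 detected, beside 306 of all 377 detected genes. The annotation holds 118 such genes besides Mir22, leaving out those that overlap an exon of a protein-coding gene, as Mir22 itself does at Tlcd2. Of these, 47 were detected, and 5 were at least 2-fold higher in replicate 1 and none in replicate 2, beside 13.0% and 5.84% of all detected genes. Their median log2 ratio was -0.04, as over all detected genes. These values lie near those over all detected genes, so nothing is read from them. Any host not annotated as protein-coding was taken as non-coding. Hairpins of 72 of the 118 share runs with others, and multiply mapped reads were left uncounted. Mirlet7i, the most abundant of the list, was at 0.29. Mir429 of the miR-200 family (-3.93) was the farthest towards replicate 1, and Mir122 of liver (0.92) the farthest towards replicate 2. Mir214 (-2.70) and Mir205 (-2.67), an epithelial miRNA, were past the ratio of Mir22.

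A list of 13 other miRNAs known to target Tet2 had 11 members in the count tables under these names, all detected. Of these, 2 were at least 2-fold higher in replicate 1 and 1 in replicate 2, shares close to the 13.0% and 5.84% over all detected genes. The median log2 ratio was -0.53, beside -0.04 over all detected genes. Mir7b, a neuroendocrine miRNA and the most abundant of them, was at 3362 CPM (replicate 1) and 4213 CPM (replicate 2; log2 ratio 0.38). Mir29a, a regulator of collagen genes, had 1579 CPM and 781 CPM (-0.96). Mir26a-2 (-1.24) and Mir26a-1 (3.07) were the extremes. Hairpins of 9 of the 11 share runs with others, and multiply mapped reads were left uncounted, so the values of this list are uncertain. No member of it reached the ratio of Mir22 towards replicate 1. Few detected genes did, since Mir22 ranked 14th of the 377 in that direction, so nothing is read from this.

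Markers of several cell types and tissues also differed between the libraries, some with Mir22 and some against it. Epithelial markers took 0.471% of the miRNA reads in replicate 1 and 0.116% in replicate 2. All 7 genes were detected and 6 were at least 2-fold higher in replicate 1, as were 13.0% of all detected genes. The seventh, Mir203, was at least 2-fold higher in replicate 2 (log2 ratio 1.17), where it held 4356 of the 5248 epithelial reads. Erythroid markers took 0.106% and 0.0287%, with 2 of 3 genes at least 2-fold higher in replicate 1, the neighbours Mir451a (log2 ratio -1.95) and Mir144 (-1.95). The third, Mir486, was at 20.4 CPM in replicate 1 and 27.7 CPM in replicate 2 (0.50). Kidney markers took 0.0380% and 0.0147%, with 2 of 3 detected genes so. The endothelial marker Mir126a was 2.77-fold higher in replicate 1. Striated muscle markers went the other way, at 0.125% and 0.869%, with all 3 detected genes of 9 at least 2-fold higher in replicate 2, as were 5.84% of all detected genes. These were Mir206 (log2 ratio 2.85), Mir499 (3.15) and Mir208b (1.75). Mir206 alone held 6146 of the 6203 striated muscle reads in replicate 1 and 38876 of 39149 in replicate 2, so these shares are nearly those of 1 gene. Mir499 had 23 reads in replicate 1 and 179 in replicate 2, and Mir208b had 19 and 56. Of the 6 others, Mir133b had 9 reads in replicate 1 and 29 in replicate 2, while Mir1a-2 had 5 and 2. In this list 5 of the 9 hairpins share runs with others, so a low count there is not a level.

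In the remaining marker lists most detected genes lay within 2-fold. Leukocyte markers had none of 4 past 2-fold, with shares of 0.126% and 0.155%. Neuroendocrine markers had none of the 2 in the count tables, where Mir7a-1 and Mir7a-2 were absent under these names. Mir375 (log2 ratio 0.22) and Mir7b (0.38) were both slightly higher in replicate 2. The list shares were 3.97% and 4.52%. Mir375 held 180462 of the 197137 neuroendocrine reads in replicate 1 and 184879 of 203866 in replicate 2. The liver marker Mir122 was within 2-fold, at 0.145% and 0.264%. Of 4 detected mesenchymal genes, Mir214 was at least 2-fold higher in replicate 1 and Mir145a (1.49) in replicate 2, with list shares of 3.02% and 3.75%. Mir143 held 128218 of the 149725 mesenchymal reads in replicate 1 and 158323 of 168985 in replicate 2. The part of any of these cell types in the difference at Mir22 was not tested.

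**Figure D2:**
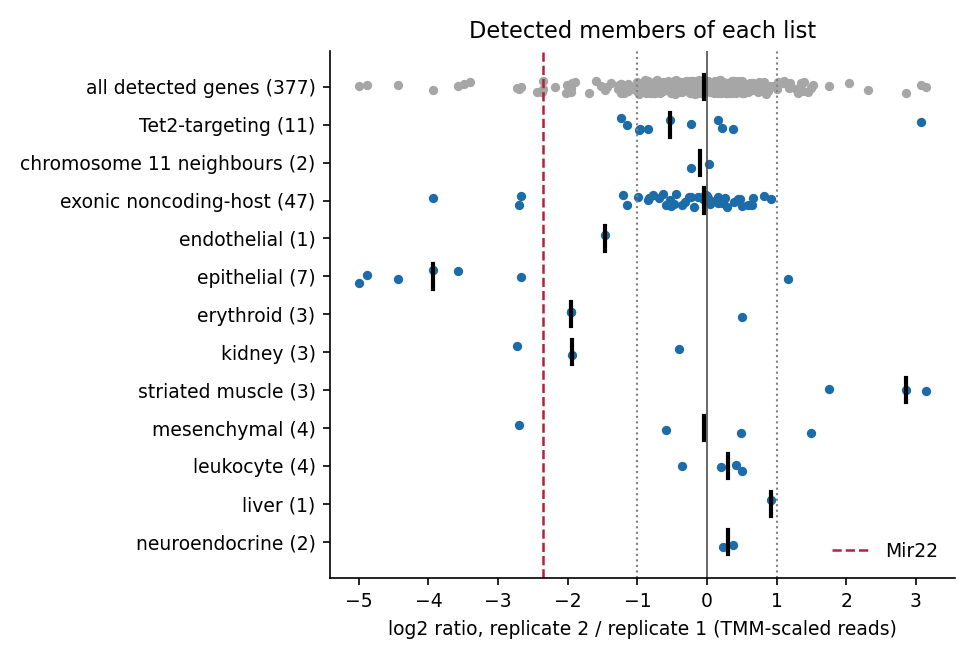
Log2 ratio of replicate 2 over replicate 1 (TMM-scaled reads) for the detected members of each list, with their number in brackets, a black bar at the median and dotted lines at 2-fold. The dashed line marks Mir22 at -2.35, which lies to the left of all detected Tet2-targeting genes and chromosome 11 neighbours and to the right of most epithelial genes.

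The direction of the ratio of Mir22 was the same under each scaling tried. Its reads differed between the libraries far more than the library totals did, so a common direction is no test of it. The log2 ratio was -2.41 by total miRNA reads, -2.49 by all reads of the library, unassigned ones included, and -2.32 with DESeq2 size factors. With Mir22 and Mir126a themselves left out of the total it was -2.60. It was smallest in size under upper quartile scaling, at -1.97, a 3.91-fold difference. Reads of both strands gave -2.34.

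**Figure D3:**
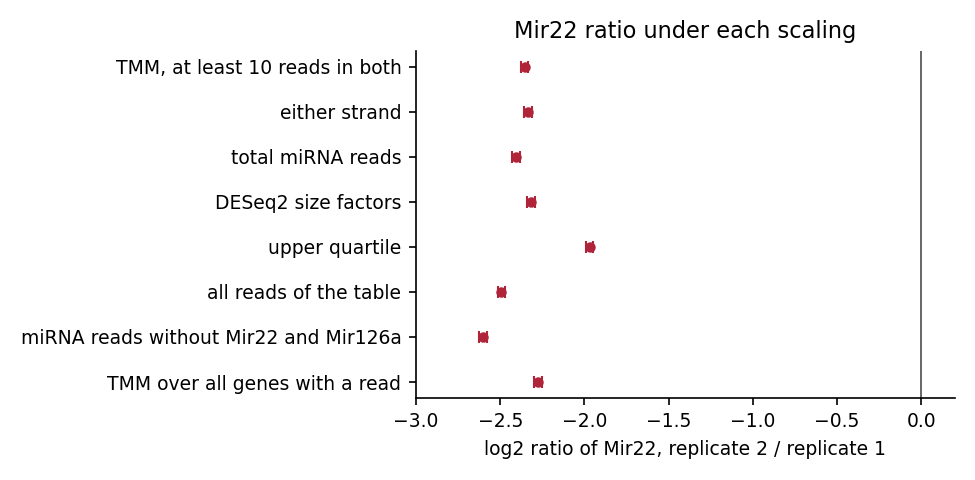
Log2 ratio of Mir22, replicate 2 over replicate 1, under 8 ways of scaling or counting, with 95% exact binomial intervals of the read split (counting error only). All values lie between -2.60 and -1.97, away from the line at 0.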

How the data were processed

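The deposited tables, 1 per library, hold raw counts of reads for each miRNA gene as whole numbers. Per the file headers they rest on mm10 and GENCODE M21. Neither the aligner nor the counting tool is given in the sources used here. The tables have 3 count columns without names, read from the values as either, annotated and opposite strand, and the annotated strand was used. Leading rows that name no gene (unmapped, multiply mapped, outside miRNA genes) held 57.6% and 60.1% of the reads and were left out.

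CPM, Wilson and exact binomial intervals were computed with scipy 1.17.1. Log2 ratios used TMM factors of edgeR 4.0.16 (1.02 and 0.982) over genes of at least 10 reads in both libraries, with DESeq2 1.42.0 size factors as an alternative. The ratio step was tested on simulated data with counting error only, in which the most abundant genes, Mir126a among them, were left unchanged. A fall in share like that of Mir126a was thus not part of this check. With 1 group, no test between conditions exists. Genes named were Mir22, its 3 neighbours in rank on each side, the 5 nearest in ratio, genes within 1 Mb, the leading and extreme members of each list, and 3 reference miRNAs. Others were named after their values were seen. A further planned list is not reported here. Mir22 and the lists were chosen with earlier results of these data known.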

Additional observations from a re-analysis of the deposited data

How the results depend on the processing

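The level of Mir22 moved by less than 1 SD under each alternative, because the SD of the 2 libraries is so wide. Leaving out 1 of 2 libraries always moves a mean by less than 1 SD, so this is no sign of stability. The level was 4200.0 CPM without replicate 1 and 22261 CPM without replicate 2, with ranks of 43 and 11, so each library decides these values. With all reads of the library as the total, the mean was 5556 CPM, and over hairpins that share no run it was 18980 CPM with a rank of 14. The log2 ratio of -2.35 became -2.41 by total miRNA reads, -2.32 with DESeq2 size factors, -1.97 with upper quartile scaling, -2.49 by all reads, -2.60 without Mir22 and Mir126a in the total, and -2.28 with TMM over all genes with a read (4.84-fold).

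With at least 1 read in both libraries as the minimum, 649 genes were counted in place of 377. Of these, 102 (15.7%) in place of 49 (13.0%) were at least 2-fold higher in replicate 1 and 76 (11.7%) in place of 22 (5.84%) in replicate 2. Median log2 ratios by total miRNA reads were -0.59 for the Tet2 list, -0.15 for the chromosome 11 neighbours and -0.088 for miRNAs in non-coding exons. Over hairpins that share no run they were -0.29 (2 genes), unchanged (2 genes) and -0.13 (29 genes). The neighbours had -0.23 with at least 1 read as the minimum. The exonic list had -0.020 with that minimum and with a mean of at least 100 reads. No paired analysis was possible because the series holds 1 group. Counting error is small at the depth of Mir22, and the number of libraries limits its precision.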
